A study of Mus musculus with 20 samples.

Results

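The integrated stress response and the unfolded protein response are described here through 38 genes, of 45706 gene identifiers counted, chosen as targets of the transcription factor ATF4, enzymes of serine synthesis, endoplasmic reticulum (ER) chaperones and the sensors and factors that control them. All 38 genes were found by symbol, and all 38 passed the filter on low counts in tumors and in cells. The tumor samples were 4 mammary tumors from control PyMT mice, labelled wild type for CTSD, and 4 from MMTV-cre;Ctsd-/- PyMT mice, all 18 weeks old and on a C57BL/6N background. All these mice carry the PyMT oncogene, and the MMTV promoter drives both the oncogene and the cre, so that Ctsd, the gene of the lysosomal protease cathepsin D, is removed from mammary epithelium while stromal cells keep it. The cell samples were spontaneously immortalized PyMT tumor cells of Ctsd+/+ or Ctsd-/- genotype, kept in medium with 1% fetal calf serum (FCS). The groups named 1% FCS had 10 days in this medium and those named 1% FCS LT had 12 weeks, with 3 samples in each of the 4 groups. The study describes 1 cell line of each genotype, so that genotype and cell line cannot be told apart. The replicates are taken as repeated cultures of that line. The tumor control samples share one LR number in the labels and the MMTV-cre;Ctsd-/- tumors another, so that this number and genotype cannot be told apart.

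Both responses act through changes in translation and transcription. In the integrated stress response, kinases such as PERK (Eif2ak3) and GCN2 (Eif2ak4) phosphorylate the initiation factor eIF2, which lowers general translation while ATF4 is translated more and turns on genes for amino acid supply and stress adaptation. In the unfolded protein response, PERK, IRE1 (Ern1) and ATF6 sense misfolded protein in the ER, and the factors ATF6 and spliced XBP1 turn on chaperones and ER-associated degradation. Secretory cells such as mammary epithelium depend on these pathways, and ATF4 and spliced XBP1 activity are set largely after transcription, which counts of gene transcripts do not measure.

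Promoter letters known for the 2 arms are shown first, as background to the results below. The 250 bases before each gene's start were searched on both strands, using RefSeq promoter sequences of build GRCm38.p6, which hold 34 of the 38 genes. Atf6, Cth, Hyou1 and Manf were not in the sequences used here. The ER stress response element (ERSE), CCAAT and CCACG with 9 free bases between them, was found before 5 of the 8 searched ER chaperone genes, and before 35 of 27025 genes in all (0.13%). No other of the 34 genes searched held it. The shorter ERSE-II, ATTGG and CCACG with 1 free base between them, was found in Herpud1, and in 0.037% of all genes. The core of the amino acid response element that ATF4 binds with C/EBP factors (CARE), TGATGNAA, was found in 6 of the 34 genes and in 3.91% of all genes. The element UPRE, TGACGTGG, was found in none of the 34 and in 0.603% of all genes. None of these letters overlapped in 1 promoter, and a match is a description of the sequence only. Matches are in capitals in the stretches that follow, each written 5′ to 3′ on the gene's strand with the flanking bases.
Hspa5, chr2:34772013-34772055, plus strand, ERSE: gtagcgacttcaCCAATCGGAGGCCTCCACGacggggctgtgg
Hsp90b1, chr10:86705521-86705668, minus strand, ERSE on both strands: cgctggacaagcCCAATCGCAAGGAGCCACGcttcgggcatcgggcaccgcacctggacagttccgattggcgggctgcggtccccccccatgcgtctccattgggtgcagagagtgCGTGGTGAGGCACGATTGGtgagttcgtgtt
Calr, chr8:84847063-84847105, minus strand, ERSE: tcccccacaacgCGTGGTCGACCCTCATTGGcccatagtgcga
Pdia6, chr12:17266479-17266521, plus strand, ERSE: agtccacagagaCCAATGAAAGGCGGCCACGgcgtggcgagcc
Creld2, chr15:88819508-88819550, plus strand, ERSE: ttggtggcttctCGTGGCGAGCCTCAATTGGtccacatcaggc
Herpud1, chr8:94386305-94386399, plus strand, CARE and then ERSE-II: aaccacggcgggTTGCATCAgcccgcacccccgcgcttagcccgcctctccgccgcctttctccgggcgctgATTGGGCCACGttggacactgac
Asns, chr6:7693213-7693244, minus strand, CARE: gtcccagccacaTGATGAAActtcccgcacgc
Pycr1, chr11:120643832-120643863, minus strand, CARE: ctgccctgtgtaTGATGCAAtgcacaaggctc
Chac1, chr2:119351037-119351068, plus strand, CARE: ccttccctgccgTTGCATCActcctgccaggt
Vldlr, chr19:27216808-27216839, plus strand, CARE: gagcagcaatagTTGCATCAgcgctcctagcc
Nupr1, chr7:126625561-126625592, minus strand, CARE: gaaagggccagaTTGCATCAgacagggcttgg

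Values are CPM, counts scaled to 1000000 per library with TMM factors, which correct for differences in library composition, and differences are log2 fold changes (log2 FC) ± the standard error of edgeR's quasi-likelihood fit. A gene was called in cells at a Benjamini-Hochberg adjusted p under 0.05 over all 15178 genes tested, and in tumors at an unadjusted p under 0.1 over 18617 genes, the threshold used by the study for tumors. Totals on genes were 33622831 to 40239762 in cells and 49725437 to 64291587 in tumors, so that counting error was small beside the spread between samples for all but the lowest genes. Ctsd was 1267 to 4199 CPM in the 3 Ctsd+/+ 1% FCS samples and 131 to 192 CPM in Ctsd-/- 1% FCS. After 12 weeks it was 1627 to 1895 CPM in Ctsd+/+ and 114 to 151 CPM in Ctsd-/- cells. In tumors Ctsd was 1781 to 2617 CPM in controls and 360.2 to 1295 CPM in MMTV-cre;Ctsd-/- samples.

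The 3 Ctsd+/+ 1% FCS samples stood apart from the other cells. The summed level of 7 fibroblast markers was 1178, 3310 and 1673 CPM in them and 3.05 to 99.8 CPM in the other 9 cell samples, and that of 8 epithelial markers was 999.8 to 2105 CPM against 6055 to 13867 CPM. These levels move with each comparison that uses the Ctsd+/+ 1% FCS samples, and their part in the results was not tested. The comparison of genotypes in 1% FCS LT and that of culture times in Ctsd-/- cells do not use these samples, other than for the shared estimate of the spread. Marker levels differed there too. In 1% FCS LT the summed epithelial markers were 6055 to 7083 CPM in Ctsd+/+ and 7421 to 9103 CPM in Ctsd-/- cells, and 8 macrophage markers summed to 54.9 to 63.7 CPM and 9.03 to 25.2 CPM, without overlap. In Ctsd-/- cells the epithelial sum was 9591 to 13867 CPM at 10 days, also without overlap. The part of these levels in the results was not tested. In these bulk samples fewer cells of a type and less RNA per cell cannot be told apart.

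The order of the levels per length differed between tumors and cells and, for genes such as Nupr1 and Atf6, between cell groups. Per kilobase of exon, Calr, which encodes the calcium-binding chaperone calreticulin, was highest of the 38 genes in all 4 cell groups at means of 195 to 344 CPM per kb. Hspa5, which encodes the ER chaperone BiP, was highest in tumors at 297 CPM per kb in controls and 267 CPM per kb in MMTV-cre;Ctsd-/- tumors. Atf4 ranked between 2 and 6 in cells at 153 to 176 CPM per kb, and 11 and 10 in control and MMTV-cre;Ctsd-/- tumors. Xbp1 ranked 3 in both tumor groups at 181 and 214 CPM per kb, and between 15 and 23 in cells. Nupr1 ranked 3 in Ctsd+/+ LT cells at 217 CPM per kb and 18 in Ctsd-/- 1% FCS cells at 30.4 CPM per kb. Atf6 ranked 29 in Ctsd+/+ 1% FCS cells at 9.75 CPM per kb and 14 in Ctsd-/- LT cells at 32.5 CPM per kb. The lowest were Ern1 in tumors and Cth, Pycr1 or Vldlr in cells. Tumor and cell libraries were made and counted differently, so these levels are set side by side and not compared by a test.

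The first question was what differed between Ctsd-/- and Ctsd+/+ cells after 10 days in 1% FCS. Xbp1 and 6 of the 10 ER chaperone genes were lower in Ctsd-/- cells, the sensor genes Atf6 and Eif2ak3 were higher, and Atf4 did not pass the test. Of the 38 genes 6 rose and 11 fell, against 23.5% of all genes called higher and 25.1% called lower (48.5% in either direction). The share of the 38 called was 44.7%, near the background. The median log2 FC was -0.05 over the 38 and 0.00025 over all genes. The groups did not overlap for 14 of the 38 genes (36.8%), and for 55.2% of all genes.

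**Figure D1:**
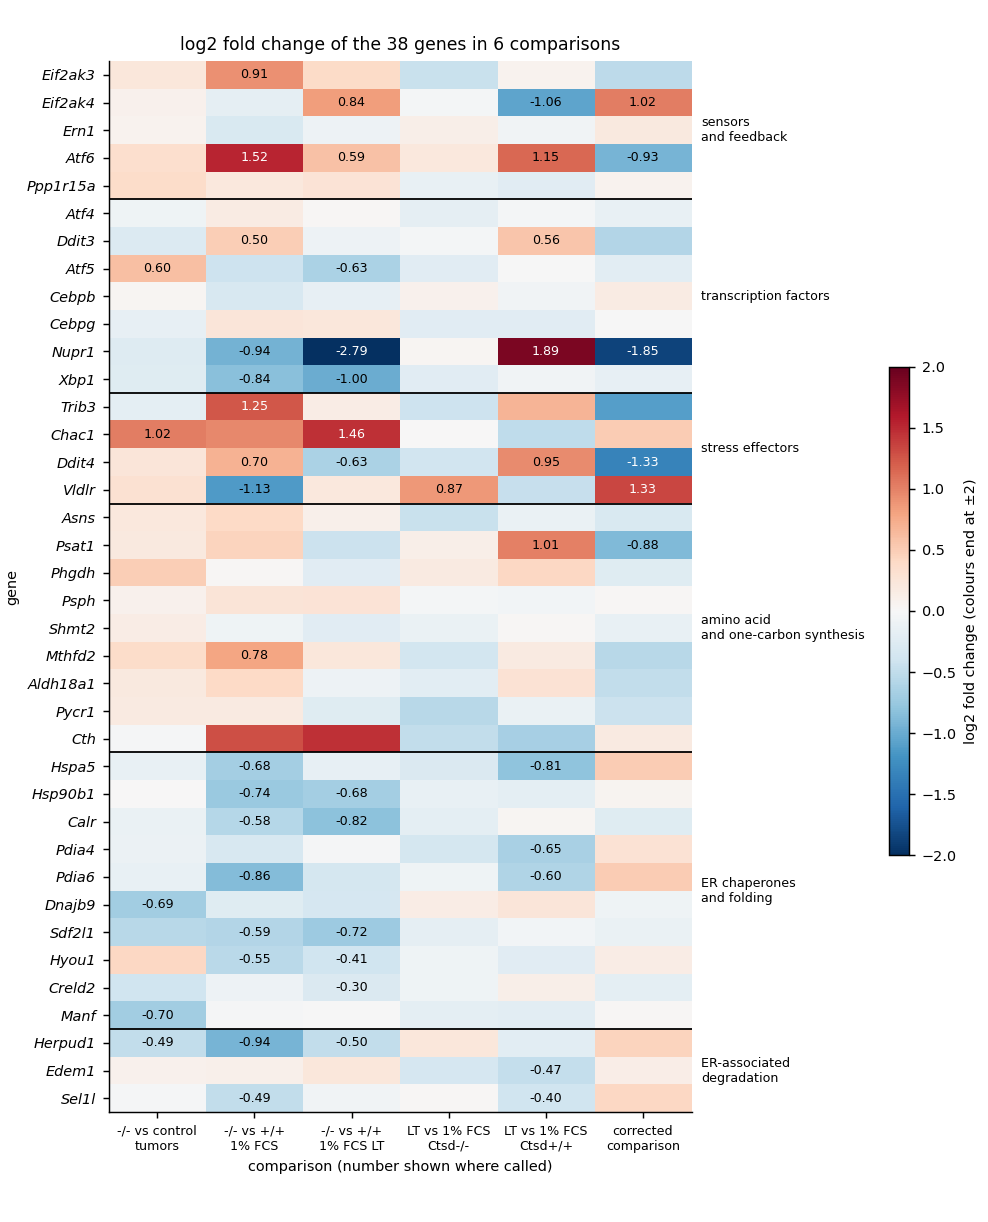
Colours give the log2 fold change of each of the 38 genes (rows, grouped by role) in 6 comparisons (columns), with the value printed where the gene was called; the corrected comparison is the difference between genotypes in the effect of long culture. All 10 ER chaperone genes have values below 0 in both genotype comparisons of the cells, with Manf near white, while Atf4 carries no printed value in any column.

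All 10 ER chaperone and folding genes had a negative log2 FC in 1% FCS, with a median of -0.56, and 6 of them fell. Hspa5 was 1223, 1431 and 965 CPM in the Ctsd+/+ samples and 751, 814 and 692 CPM in the Ctsd-/- samples (log2 FC -0.68 ± 0.15, edgeR adjusted p = 0.0027). Every Ctsd-/- sample lay below every Ctsd+/+ sample. Hsp90b1, which encodes the ER member GRP94 of the HSP90 family, was 1275, 1189 and 819 CPM against 712, 671 and 587 CPM (log2 FC -0.74 ± 0.16, adjusted p = 0.0022). Pdia6, a protein disulfide isomerase, was 443, 436 and 298 CPM against 223, 227 and 196 CPM (log2 FC -0.86 ± 0.15, adjusted p = 0.00061). Neither gene overlapped between the groups.

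Hyou1, an ER member of the HSP70 family, fell by 0.55 ± 0.13, and Sdf2l1, a partner of BiP with its co-chaperones, by 0.59 ± 0.13, both on the log2 scale and without overlap. Calr fell by 0.58 ± 0.19 on the log2 scale (adjusted p = 0.029). Its lowest Ctsd+/+ sample, 695 CPM, lay just under the highest Ctsd-/- sample at 698 CPM, and the call was lost in 4 of 12 fits that left out a sample: those without Ctsd+/+ 1% FCS replicates 1 or 2, and without Ctsd-/- 1% FCS replicates 2 or 3 (log2 FC -0.43 to -0.59). Pdia4, another disulfide isomerase, had a log2 FC of -0.32 ± 0.14 (adjusted p = 0.078), and those of Dnajb9, Creld2 and Manf were -0.24, -0.10 and -0.02, none of them called. In ER-associated degradation, Herpud1, a membrane protein of the ubiquitin ligase complex, was 69.6, 91.1 and 67.8 CPM against 33.2, 52.0 and 34.2 CPM (log2 FC -0.94 ± 0.18, adjusted p = 0.0011). Sel1l, the adaptor of that complex, fell by 0.49 ± 0.13 on the log2 scale, and Edem1, a lectin that hands over glycoproteins, had a log2 FC of 0.10 ± 0.10.

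**Figure D2:**
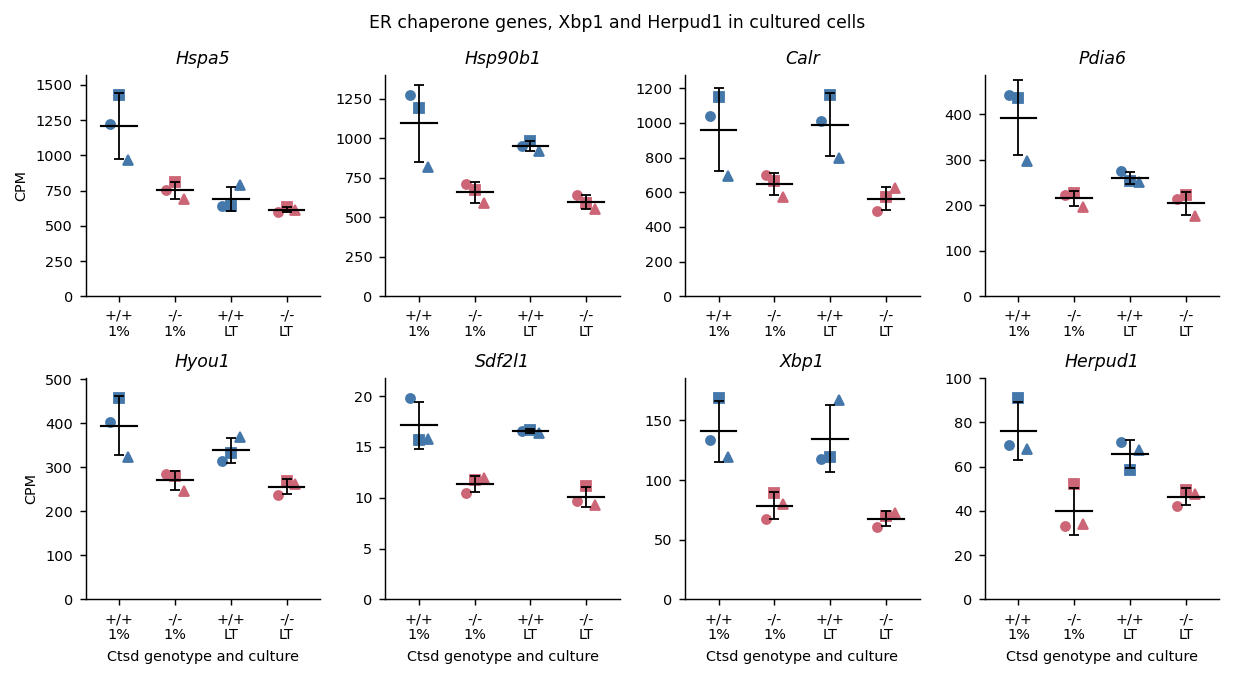
Points are the CPM of each of the 3 samples per cell group (circle, square and triangle for replicates 1, 2 and 3), with the mean as a line and the SD as a bar; blue is Ctsd+/+ and red Ctsd-/-. For Hspa5, Hsp90b1, Pdia6, Hyou1, Sdf2l1, Xbp1 and Herpud1 each Ctsd-/- sample lies below each Ctsd+/+ sample of the same culture time. For Calr this holds in 1% FCS LT alone.

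Among the transcription factors, Xbp1 was 134, 169 and 119 CPM in Ctsd+/+ and 67.1, 89.0 and 79.8 CPM in Ctsd-/- cells in 1% FCS (log2 FC -0.84 ± 0.17, adjusted p = 0.0018). These groups did not overlap. Atf4 was 287, 387 and 438 CPM against 324, 493 and 427 CPM (log2 FC 0.16 ± 0.20, adjusted p = 0.52), and its groups overlapped widely. Ddit3, which encodes the pro-apoptotic factor CHOP, was 21.2, 27.5 and 22.5 CPM against 32.1, 38.8 and 29.4 CPM (log2 FC 0.50 ± 0.18, adjusted p = 0.036). All Ddit3 values were higher in Ctsd-/- cells, but the call was lost in 4 of 12 fits, those without Ctsd+/+ 1% FCS replicates 1 or 3 or without Ctsd-/- 1% FCS replicates 1 or 2 (log2 FC 0.38 to 0.53). In the 8 cell samples that share one LR number, Ddit3, Calr and Mthfd2 were not called in 1% FCS, at log2 FC of 0.45, -0.57 and 0.66 (edgeR adjusted p = 0.057, 0.073 and 0.062). Nupr1, a small stress-induced chromatin protein, was 88.6, 215 and 138 CPM against 89.99, 80.1 and 59.4 CPM (log2 FC -0.94 ± 0.30, adjusted p = 0.020). Its ranges overlapped at the lowest Ctsd+/+ sample, and without Ctsd+/+ 1% FCS replicate 2 the log2 FC was -0.57 (adjusted p = 0.097), without Ctsd-/- 1% FCS replicate 3 -0.79 (adjusted p = 0.080). Atf5, Cebpb and Cebpg, a further ATF factor and partners of ATF4, had log2 FC of -0.42, -0.32 and 0.24 and were not called.

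The sensor genes did not move together in 1% FCS. Atf6 was 107, 87.9 and 75.1 CPM in Ctsd+/+ and 284, 275 and 217 CPM in Ctsd-/- cells (log2 FC 1.52 ± 0.16, adjusted p = 1.4e-05), the smallest p among the 38 genes in that comparison. Eif2ak3 was 56.9, 46.7 and 46.0 CPM against 116, 89.6 and 75.4 CPM (log2 FC 0.91 ± 0.16, adjusted p = 0.00077). Neither overlapped between the groups. Ern1 had a log2 FC of -0.30 ± 0.16, Eif2ak4 of -0.18 ± 0.15 and Ppp1r15a, the stress-induced subunit that dephosphorylates eIF2, of 0.20 ± 0.24, none of them called.

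The stress effectors moved in both directions. Trib3, a pseudokinase induced by ATF4 and CHOP, was 22.4, 35.1 and 54.3 CPM against 58.5, 124 and 82.4 CPM (log2 FC 1.25 ± 0.37, adjusted p = 0.016). The Trib3 groups did not overlap, but the log2 FC was 0.99 (adjusted p = 0.055) without Ctsd+/+ 1% FCS replicate 1 and 0.92 (adjusted p = 0.077) without Ctsd-/- 1% FCS replicate 2. Ddit4, which encodes the mTORC1 inhibitor REDD1, was 124, 161 and 171 CPM against 262, 238 and 239 CPM (log2 FC 0.70 ± 0.14, adjusted p = 0.0014). Vldlr, a lipoprotein receptor, was 56.2, 61.1 and 60.7 CPM against 34.5, 26.5 and 20.4 CPM (log2 FC -1.13 ± 0.18, adjusted p = 0.00039). The Ddit4 and Vldlr groups were both apart, in opposite directions. Chac1, which encodes a glutathione-degrading enzyme, was 11.6, 30.2 and 32.5 CPM against 26.5, 70.6 and 46.8 CPM, with overlapping groups (log2 FC 0.95 ± 0.43, adjusted p = 0.086). Chac1 was called higher there by DESeq2, without the filter on low counts, with a replicate block and in the samples of one LR number.

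Of the 9 genes for amino acid and one-carbon synthesis, 8 had a positive log2 FC in 1% FCS (median 0.39) and 1 was called. Mthfd2, the mitochondrial folate enzyme, was 47.6, 74.0 and 118 CPM against 108, 159 and 145 CPM (log2 FC 0.78 ± 0.28, adjusted p = 0.036). The groups overlapped, and the call was lost in 4 of 12 fits, those without Ctsd+/+ 1% FCS replicates 1 or 2 or without Ctsd-/- 1% FCS replicates 2 or 3 (log2 FC 0.52 to 0.75). Asns, asparagine synthetase, had a log2 FC of 0.40 ± 0.24, and the serine synthesis genes Phgdh, Psat1 and Psph had 0.02, 0.45 and 0.25. Shmt2, which makes glycine from serine, had -0.08, the proline synthesis genes Aldh18a1 and Pycr1 0.39 and 0.19, and Cth, which makes cysteine from cystathionine, 1.29 ± 0.70. None of these passed edgeR's test in the fit of all 12 samples without a block, while limma-voom and the fit with a replicate block called Cth higher. Without Ctsd+/+ 1% FCS replicate 3, edgeR called Asns, Psat1, Aldh18a1 and Cth higher as well as Mthfd2. Without Ctsd-/- 1% FCS replicate 1 it called Psat1 higher. Of all genes 46.4% and 45.4% were called in these 2 fits.

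The replicates of a group differed more in some roles than in others. In Ctsd+/+ 1% FCS cells all 9 amino acid genes were lowest in replicate 1 and highest in replicate 3, with Asns at 85.4, 134 and 185 CPM and Cth at 2.01, 2.99 and 18.4 CPM. In the same 3 samples 9 of the 10 ER chaperone genes were lowest in replicate 3. In Ctsd-/- 1% FCS cells all 9 amino acid genes were lowest in replicate 1 and highest in replicate 2. After 12 weeks, 8 of the 9 were lowest in replicate 2 of Ctsd+/+ cells, and all 9 were highest in replicate 3 of Ctsd-/- cells. Over the 38 genes the median coefficient of variation (SD over mean) of the CPM was 20.8% in Ctsd+/+ and 16.4% in Ctsd-/- 1% FCS cells, and 16% and 9.82% in 1% FCS LT. The replicate 1 samples of both 1% FCS groups carry another LR number than the other cell samples of those groups. The same holds for the replicate 3 samples of both 1% FCS LT groups. The former number occurs at 10 days alone and the latter at 12 weeks alone, so that LR number and culture time are partly confounded.

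**Figure D3:**
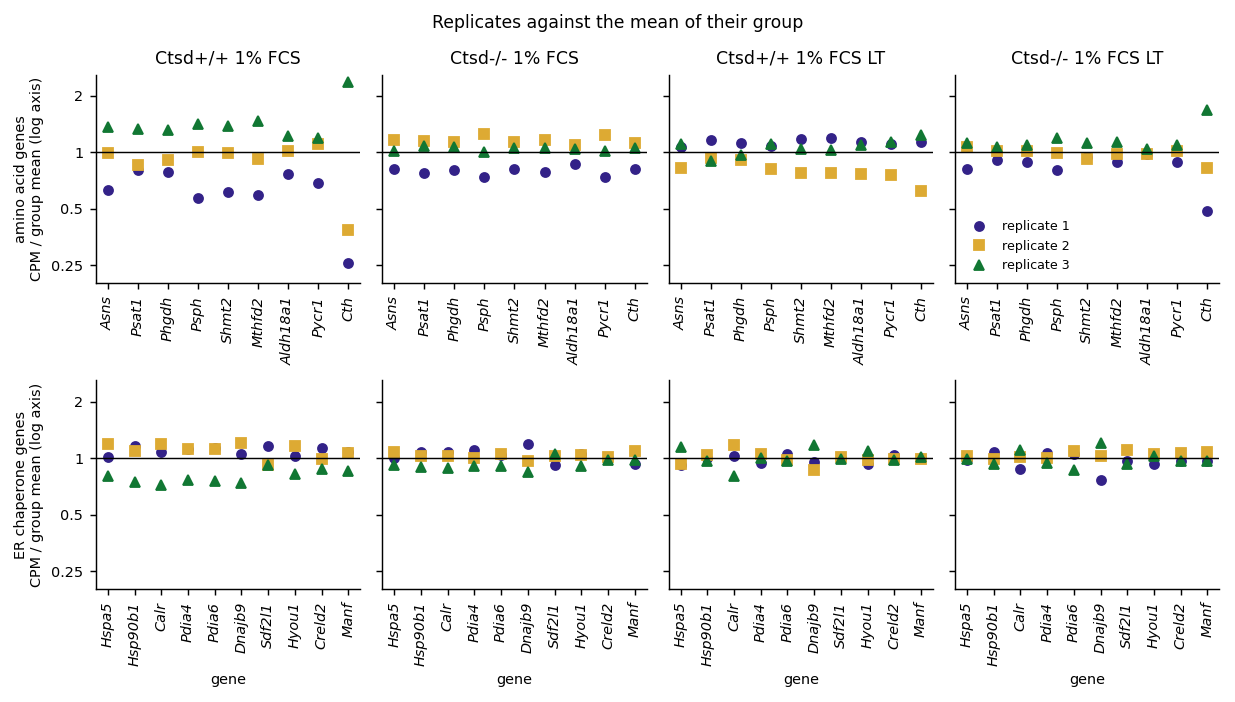
Each point is the CPM of 1 sample divided by the mean of its group of 3, on a log axis, for the amino acid genes (top row) and the ER chaperone genes (bottom row) in the 4 cell groups. In Ctsd+/+ 1% FCS cells replicate 3 is highest for all 9 amino acid genes and lowest for 9 of 10 ER chaperone genes.

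The second question was whether the genotypes still differed after 12 weeks in 1% FCS. Xbp1, Herpud1, Nupr1 and 5 of the 10 ER chaperone genes were lower in Ctsd-/- cells, and Eif2ak4, Atf6 and Chac1 were higher. Of the 38 genes 3 rose and 10 fell, against 20.5% of all genes called higher and 19.1% lower (39.6% in either direction). The share of the 38 called was 34.2%, with a median log2 FC of -0.10 against 0.01 over all genes. With the Ctsd+/+ 1% FCS samples left out of the fit altogether, an alternative added after the data were seen, 4 rose and 12 fell. In that fit 43.5% of all genes were called in either direction. The groups did not overlap for 18 of the 38 genes (47.4%), and for 54.2% of all genes.

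Nupr1 showed the largest difference of the 38 genes in 1% FCS LT. It was 430.2, 575 and 628 CPM in Ctsd+/+ and 61.8, 73.2 and 101 CPM in Ctsd-/- cells (log2 FC -2.79 ± 0.31, adjusted p = 3.5e-05), a 6.93-fold difference with no overlap. Xbp1 was 117, 119 and 167 CPM against 60.3, 69.7 and 72.4 CPM (log2 FC -0.995 ± 0.17, adjusted p = 0.00077). Atf5 fell by 0.63 ± 0.19 on the log2 scale (adjusted p = 0.018), with 64.4 to 109 CPM against 48.6 to 67.5 CPM and overlapping groups. The Atf5 call was lost in 3 of 12 fits, without Ctsd+/+ 1% FCS LT replicate 3 or without Ctsd-/- 1% FCS LT replicates 1 or 2 (log2 FC -0.44 to -0.58). Atf4 was 378, 283 and 422 CPM against 341, 369 and 390.0 CPM (log2 FC 0.02 ± 0.20, adjusted p = 0.94), and Ddit3 was 30.7, 28.8 and 45.3 CPM against 34.4, 31.1 and 32.5 CPM (log2 FC -0.10 ± 0.18, adjusted p = 0.70).

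All 10 ER chaperone genes again had a negative log2 FC, with a median of -0.34, and 5 fell. Hsp90b1 was 952, 983 and 918 CPM against 642, 590.2 and 555 CPM (log2 FC -0.68 ± 0.16, adjusted p = 0.0048). Calr was 1013, 1163 and 797 CPM against 492, 571 and 623 CPM (log2 FC -0.82 ± 0.20, adjusted p = 0.0059). Sdf2l1 was 16.6, 16.7 and 16.4 CPM against 9.65, 11.1 and 9.34 CPM (log2 FC -0.72 ± 0.13, adjusted p = 0.0012). None of these 3 overlapped. Hyou1, Creld2, a small disulfide isomerase-like protein, and Herpud1 fell by 0.41, 0.30 and 0.50 on the log2 scale. These calls lay near the threshold, at edgeR adjusted p = 0.028 for Hyou1, 0.040 for Creld2 and 0.041 for Herpud1. Of 12 fits that left out a sample, that of Creld2 was lost in 9, that of Hyou1 in 5 and that of Herpud1 in 5. Each loss came without one of the 6 LT samples or, for Creld2, also without any Ctsd-/- 1% FCS sample. In the fits that lost the call the log2 FC was -0.26 to -0.34 for Creld2, -0.34 to -0.44 for Hyou1 and -0.43 to -0.54 for Herpud1. In the 8 samples that share one LR number their log2 FC were -0.35 for Hyou1, -0.29 for Creld2 and -0.49 for Herpud1, and none was called. Hspa5 was 637, 642 and 790.2 CPM against 600.5, 633 and 611 CPM (log2 FC -0.17 ± 0.15, adjusted p = 0.40), and Pdia6 had a log2 FC of -0.35 ± 0.15 (adjusted p = 0.086). Neither was called, though for both genes each Ctsd-/- LT sample lay below each Ctsd+/+ LT sample.

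Among sensors, Eif2ak4 was 27.6, 23.6 and 35.6 CPM in Ctsd+/+ and 56.3, 50.1 and 48.8 CPM in Ctsd-/- LT cells (log2 FC 0.84 ± 0.15, adjusted p = 0.0011). Atf6 was 200.4, 186 and 212 CPM against 251, 310.3 and 339.7 CPM (log2 FC 0.59 ± 0.16, adjusted p = 0.010). Both were apart between the genotypes. Eif2ak3 had a log2 FC of 0.38 ± 0.16 (adjusted p = 0.084), with all Ctsd-/- values, 62.8 to 76.7 CPM, above those of Ctsd+/+ cells, 46.6 to 60.4 CPM.

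Among effectors, Ddit4 was 308, 278 and 295 CPM in Ctsd+/+ and 175, 169 and 223 CPM in Ctsd-/- LT cells (log2 FC -0.63 ± 0.14, adjusted p = 0.0034), lower in every sample. Chac1 was 15.6, 10.7 and 26.1 CPM against 39.7, 50.7 and 53.8 CPM (log2 FC 1.46 ± 0.43, adjusted p = 0.019). The Chac1 groups did not overlap, but the call was lost in 3 of 12 fits, without Ctsd+/+ 1% FCS LT replicates 1 or 2 or without Ctsd-/- 1% FCS LT replicate 3 (log2 FC 1.21 to 1.39). In the fits of all 12 samples with the filter on low counts, no amino acid gene was called by edgeR, DESeq2 or limma-voom, and none had an unadjusted p under 0.05 in edgeR, with log2 FC from -0.43 for Psat1 to 1.47 for Cth. Without the Ctsd+/+ 1% FCS samples, or without replicate 3 of them alone, edgeR called Cth higher and Psat1 lower, and without the filter it called Cth.

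The 2 genotype comparisons of the cells share no sample, though they share the 2 lines. Xbp1, Nupr1, Hsp90b1, Calr, Sdf2l1, Hyou1 and Herpud1 fell in both, which is 63.6% of the 11 that fell in 1% FCS and 70% of the 10 that fell in 1% FCS LT. Over all genes these shares were 40.3% and 53%. Atf6 rose in both, which is 16.7% of the 6 that rose in 1% FCS and 33.3% of the 3 that rose in 1% FCS LT. Over all genes the shares of rising genes were 38.8% and 44.5%. Ddit4 rose in 1% FCS and fell in 1% FCS LT (2.63% of the 38 genes), and 5.11% of all genes were called in opposite directions.

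The third question was what 12 weeks of culture changed against 10 days. In Ctsd-/- cells 1 of the 38 genes was called, Vldlr, against 2.38% of all genes (1.57% higher, 0.81% lower). Vldlr was 34.5, 26.5 and 20.4 CPM at 10 days and 50.7, 50.7 and 47.3 CPM at 12 weeks (log2 FC 0.87 ± 0.18, adjusted p = 0.034). Without overlap between the times, this call was nevertheless lost in 5 of 12 fits, those without Ctsd-/- 1% FCS replicates 2 or 3 or without any 1 of the 3 Ctsd-/- LT samples (adjusted p = 0.050 to 0.13). The log2 FC of Atf4 was -0.18 ± 0.20, of Xbp1 -0.22 ± 0.17 and of Hspa5 -0.29 ± 0.15, and 27 of the 38 genes had a negative sign.

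In Ctsd+/+ cells 5 of the 38 genes rose with long culture and 6 fell, against 23% and 23.4% of all genes (46.4% in either direction). The share called was 28.9%. Nupr1 rose from 88.6, 215 and 138 CPM to 430.2, 575 and 628 CPM (log2 FC 1.89 ± 0.30, adjusted p = 0.00036). Atf6 rose by 1.15 ± 0.16 on the log2 scale, Ddit4 by 0.95 ± 0.14, Psat1 by 1.01 ± 0.21 and Ddit3 by 0.56 ± 0.18. Psat1, the aminotransferase of serine synthesis, was 187, 198 and 309.7 CPM at 10 days and 542, 434 and 421 CPM at 12 weeks, without overlap. Hspa5 fell from 1223, 1431 and 965 CPM to 637, 642 and 790.2 CPM (log2 FC -0.81 ± 0.15, adjusted p = 0.00096). Pdia4, Pdia6, Edem1 and Sel1l fell by 0.65, 0.60, 0.47 and 0.40 on the log2 scale, and Eif2ak4 by 1.06 ± 0.15. The Sel1l call was lost without Ctsd+/+ 1% FCS replicates 1 or 2 or without any 1 Ctsd+/+ LT sample (log2 FC -0.28 to -0.43), and that of Ddit3 without Ctsd+/+ 1% FCS replicates 1 or 3 or Ctsd+/+ LT replicate 3 (log2 FC 0.33 to 0.52). In the 8 samples of one LR number Ddit3, Pdia6 and Sel1l were not called, at log2 FC of 0.25, -0.47 and -0.29.

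**Figure D4:**
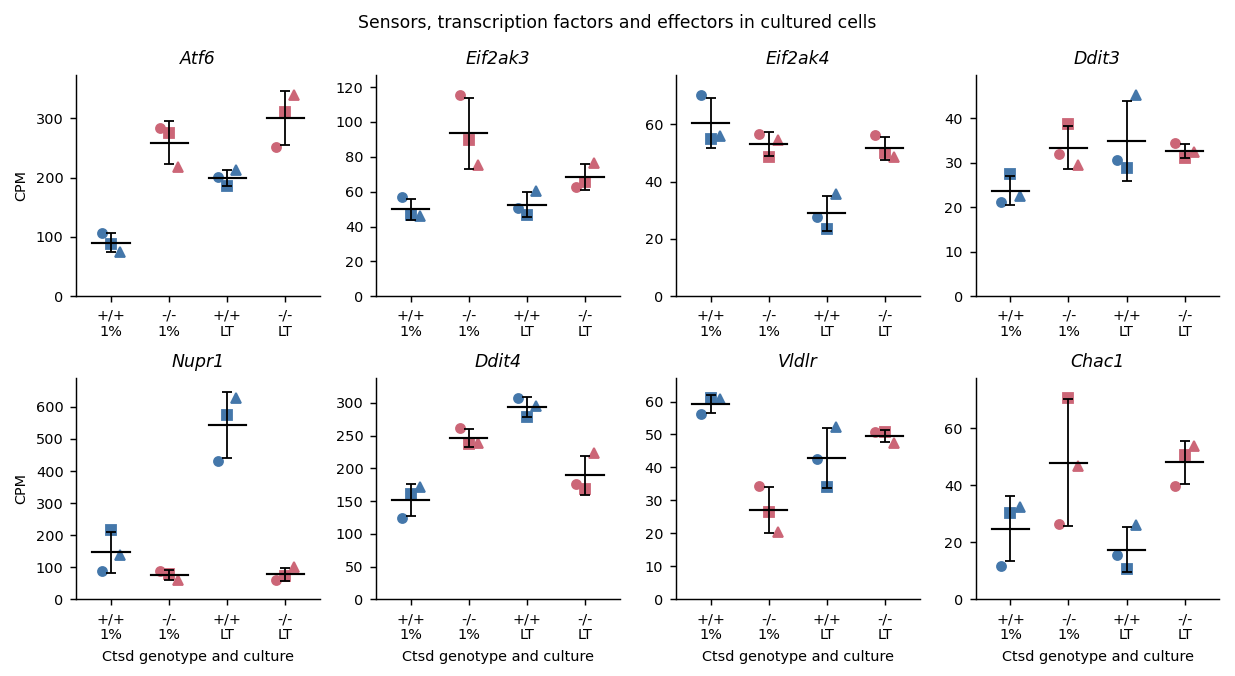
Points are the CPM of each of the 3 samples per cell group, with the mean as a line and the SD as a bar, for sensors, transcription factors and effectors; symbols mark replicates as before, blue is Ctsd+/+ and red Ctsd-/-. Nupr1 is 430.2 to 628 CPM in Ctsd+/+ LT cells and 59.4 to 215 CPM in the other 3 cell groups, and Ddit4 is higher in Ctsd-/- cells at 10 days and lower at 12 weeks.

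The corrected comparison subtracts the effect of long culture in Ctsd+/+ cells from that in Ctsd-/- cells, and so uses all 12 samples. Of the 38 genes 2 were higher and 4 lower, against 16.1% and 14.1% of all genes (30.3% in either direction), a share of 15.8% for the 38. Vldlr (1.33 ± 0.26, adjusted p = 0.0025) and Eif2ak4 (1.02 ± 0.22, adjusted p = 0.0041) were the positive ones on the log2 scale. Eif2ak4 fell with long culture in Ctsd+/+ cells, from 55.1 to 70.4 CPM down to 23.6 to 35.6 CPM, while it was 48.5 to 56.8 and 48.8 to 56.3 CPM in Ctsd-/- cells. Nupr1 (-1.85 ± 0.42, adjusted p = 0.0060), Ddit4 (-1.33 ± 0.19, adjusted p = 0.00040), Atf6 (-0.93 ± 0.22, adjusted p = 0.0077) and Psat1 (-0.88 ± 0.29, adjusted p = 0.037) were the negative ones. The Psat1 call was lost in 8 of 12 fits that left out a sample, all but those without Ctsd+/+ 1% FCS replicate 3, Ctsd-/- 1% FCS replicate 1 or the third LT sample of either genotype (log2 FC -0.75 to -0.93). Hspa5 and Pdia6 had 0.51 ± 0.21 (adjusted p = 0.085) and 0.52 ± 0.21 (adjusted p = 0.088), and no ER chaperone gene was called by edgeR, DESeq2 or limma-voom in the fits of all 12 samples without a block. With the replicate block Pdia6 was called higher, and without Ctsd+/+ 1% FCS replicate 3 Hspa5, Pdia4 and Pdia6 were. Hspa5 and Pdia6 were the ones with an unadjusted p under 0.05 in edgeR.

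The fourth question was what differed between MMTV-cre;Ctsd-/- and control tumors. Chac1 and Atf5 were higher and Dnajb9, Herpud1 and Manf lower at an unadjusted p under 0.1, so that 2 of the 38 genes were called higher and 3 lower, against 8.44% and 8.27% of all genes (16.7% in either direction). The share of the 38 called was 13.2%, with a median log2 FC of 0.06 over them. No gene of the 38 passed an adjusted p under 0.05 in edgeR, DESeq2 or limma-voom, and 2 had an unadjusted p under 0.05 in edgeR. Of all genes tested 1 passed the adjusted threshold in edgeR (0.00537%). Ctsd itself did not, though its groups did not overlap (log2 FC -1.25 ± 0.38, edgeR unadjusted p = 0.0078, adjusted p = 0.46). The smallest adjusted p of the 38 was 0.49. The groups did not overlap for 3 of the 38 genes, Chac1, Atf5 and Ppp1r15a (7.89%), and for 4.15% of all genes.

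Chac1 was 2.22, 2.99, 4.06 and 4.92 CPM in control tumors and 5.06, 6.49, 9.29 and 7.91 CPM in MMTV-cre;Ctsd-/- tumors (log2 FC 1.02 ± 0.33, unadjusted p = 0.011, adjusted p = 0.49 in edgeR). Atf5 was 9.63, 17.5, 13.2 and 18.3 CPM against 18.7, 23.6, 24.2 and 22.4 CPM (log2 FC 0.60 ± 0.24, edgeR unadjusted p = 0.030). Both genes were higher in each MMTV-cre;Ctsd-/- tumor than in any control, by a narrow gap. Ppp1r15a was 19.3 to 20.1 CPM in controls and 21.1 to 35.2 CPM in MMTV-cre;Ctsd-/- tumors (log2 FC 0.37 ± 0.21, edgeR unadjusted p = 0.11).

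Dnajb9, a BiP co-chaperone, was 36.3, 73.1, 72.7 and 93.6 CPM in controls against 45.4, 64.2, 31.1 and 29.6 CPM (log2 FC -0.69 ± 0.33, edgeR unadjusted p = 0.062). Herpud1 was 173, 266, 279.6 and 201 CPM against 171, 221, 141 and 120.5 CPM (log2 FC -0.49 ± 0.25, edgeR unadjusted p = 0.076). Manf, a secreted ER stress-induced factor, was 168, 268, 219.6 and 539.5 CPM against 214, 222, 127 and 173 CPM (log2 FC -0.70 ± 0.36, edgeR unadjusted p = 0.078). All 3 overlapped between the groups. Manf rested on control replicate 4: without it the log2 FC was -0.25 and the call was lost, as it was without MMTV-cre;Ctsd-/- replicate 3 (-0.56) or 4 (-0.67). Dnajb9 lost its call without control replicates 2, 3 or 4 or MMTV-cre;Ctsd-/- replicates 3 or 4 (log2 FC -0.52 to -0.67), and Herpud1 without control replicates 2 or 3 or MMTV-cre;Ctsd-/- replicates 1, 3 or 4 (log2 FC -0.37 to -0.52).

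**Figure D5:**
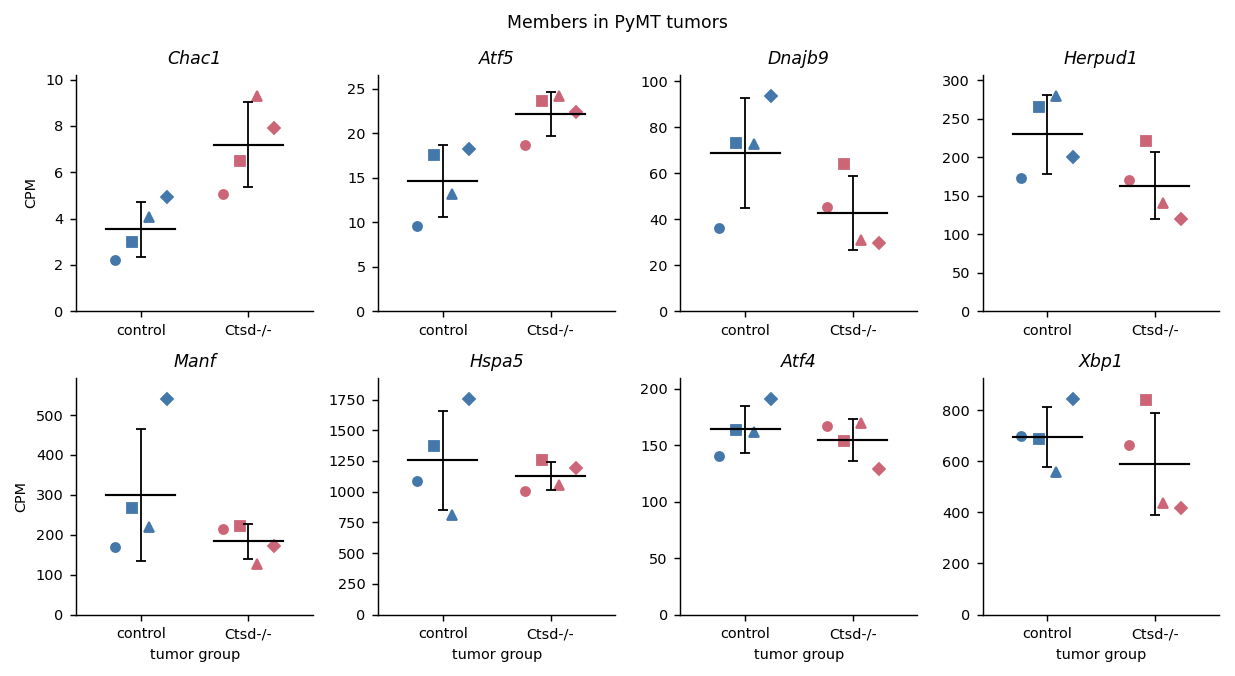
Points are the CPM of each of the 4 tumors per group (circle, square, triangle and diamond for replicates 1 to 4), with the mean as a line and the SD as a bar; blue is control and red MMTV-cre;Ctsd-/-. The Chac1 and Atf5 groups do not overlap, and the control mean of Manf is set by 1 tumor at 539.5 CPM.

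Atf4 was 141, 163, 161 and 190.5 CPM in control tumors and 167, 154, 169.5 and 128 CPM in MMTV-cre;Ctsd-/- tumors (log2 FC -0.08 ± 0.18). Xbp1 was 697, 687, 556 and 842 CPM against 662, 838, 437 and 418 CPM (log2 FC -0.24 ± 0.27), Hspa5 1088, 1373, 811 and 1752 CPM against 1009, 1258, 1056 and 1190.0 CPM (log2 FC -0.15 ± 0.26) and Ddit3 16.4, 24.0, 19.4 and 30.9 CPM against 20.3, 26.2, 13.1 and 15.8 CPM (log2 FC -0.27 ± 0.28). These 4 differed by less than the spread between tumors. Of the ER chaperone genes 8 of 10 had a negative log2 FC (median -0.15), and of the amino acid genes 8 of 9 a positive one (median 0.19). Control replicate 4 was highest among the controls for 8 of the 10 ER chaperone genes. It also had the lowest total on genes of all tumors, 49725437, and the largest share of reads that fit several genes, 15.57%. The part of this sample in the signs was not tested. In the fits of all 8 tumors with the filter on low counts, no amino acid gene was called by edgeR, DESeq2 or limma-voom. None had an unadjusted p under 0.05 in edgeR there. Without the filter, or without MMTV-cre;Ctsd-/- replicate 1, edgeR called Phgdh higher. Without control replicate 1 it called Phgdh and Mthfd2 higher. Adipocyte markers were 573 to 5887 CPM in controls and 3645 to 25754 CPM in MMTV-cre;Ctsd-/- tumors, and summed epithelial markers were 4850.3 to 8387 and 4254 to 6417 CPM. With the adipocyte marker level as a covariate the log2 FC were 0.62 for Chac1, 0.30 for Atf5, -0.49 for Dnajb9 and -0.08 for Herpud1, and none of these 4 was called.

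Further genes of the same pathways were counted from lists of ER folding, ATF4 target, tRNA synthetase, one-carbon, eIF2 and ER stress transducer genes. Over all genes 23.5% were called higher and 25.1% lower in 1% FCS, and 20.5% and 19.1% in 1% FCS LT, and the counts in cells that follow stand beside these shares. Of 29 other ER folding and degradation genes tested in cells, 5 rose and 15 fell in Ctsd-/- cells in 1% FCS (median log2 FC -0.36), and 2 rose and 11 fell in 1% FCS LT (median -0.22). P4hb, a protein disulfide isomerase, fell in both (log2 FC -1.62 ± 0.14 and -1.45 ± 0.13). Txndc5, another disulfide isomerase, fell in 1% FCS (log2 FC -1.18 ± 0.15), and Sec61b, a subunit of the ER translocon, in 1% FCS LT (log2 FC -1.1 ± 0.14). Of 18 other ATF4 targets 6 rose and 4 fell in 1% FCS, and 1 rose and 3 fell in 1% FCS LT. Of 20 cytosolic aminoacyl-tRNA synthetases 6 rose and 1 fell in 1% FCS, and 3 rose and 2 fell in 1% FCS LT. Of 18 further serine, glycine, folate and proline enzymes 2 rose and 6 fell in 1% FCS, and 3 rose and 6 fell in 1% FCS LT.

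Of 15 genes of eIF2 and its regulators, beside 48.5% of all genes called in either direction in 1% FCS and 39.6% in 1% FCS LT, 2 rose and 3 fell in 1% FCS, and 4 rose and 3 fell in 1% FCS LT. Of 7 other ER stress transducers tested 1 rose and 2 fell in 1% FCS, where Creb3l2, an ATF6-like membrane factor, fell by 2.07 ± 0.19 on the log2 scale, and 1 fell in 1% FCS LT. In Ctsd-/- cells none of the genes in these lists was called between 10 days and 12 weeks by edgeR, where 20 list entries had an unadjusted p under 0.05. DESeq2 called 8 and limma-voom 1, beside 7.14% and 2% of all genes. In tumors, at an unadjusted p under 0.1, 8.44% of all genes were higher and 8.27% lower. Of 20 tRNA synthetases 4 were higher and none lower (Vars, log2 FC 0.59 ± 0.26, and Aars, 0.55 ± 0.28, among them). DESeq2 called 2 of these synthetases higher, and 1 had an unadjusted p under 0.05 in edgeR. Of 17 other ATF4 targets tested 4 were higher and 1 lower. Of 18 further serine, glycine, folate and proline enzymes 3 were higher and none lower. Of 30 other ER folding and degradation genes 1 was higher and 2 lower. Of 15 genes of eIF2 and its regulators 1 was higher and 2 lower, and of 7 other ER stress transducers tested none was higher and 1 lower. No gene of these lists passed an adjusted p under 0.05 in tumors by edgeR or limma-voom, and 1 did by DESeq2, with 8 list entries at an unadjusted p under 0.05 in edgeR.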

How the data were processed

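RNA sequencing counts of 8 PyMT tumors and 12 samples of PyMT tumor cells were used. After trimming (Trimmomatic) and alignment to GRCm38/mm10 (STAR), the authors deposited unnormalized read counts per Ensembl gene, regardless of strand and for each strand; versions are not given in the sources used here. Reads that fit several genes are left out by such counting (7.11% to 15.57% of reads in tumors). Counts regardless of strand were used for tumors, where 52.82% to 53.66% of stranded counts lay on the opposite strand, and opposite-strand counts for cells (97.09% to 97.29%). Tumor counts therefore include antisense or overlapping transcripts, and overlap with other counted genes reached 20.7% of exon bases for Cebpb and 15.7% for Hsp90b1. Symbols, positions and exon lengths came from GENCODE M21 (45143 of 45706 identifiers matched).

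Groups were taken from the sample labels. Differences were computed with edgeR 4.0.16 (filterByExpr, TMM, glmQLFit and glmQLFTest) in R 4.3.3, in 1 fit of the 8 tumors and 1 fit of the 12 cell samples, two-sided, and p-values were adjusted across every gene in the fit (Benjamini-Hochberg). The standard error is the absolute log2 FC divided by the square root of the F statistic. edgeR's common coefficient of biological variation came to 0.429 for tumors and 0.217 for cells. The p-values measure the spread between samples of a group, which in cells are cultures of 1 line. Alternatives were DESeq2 1.42.0, limma-voom (limma 3.58.1), RLE size factors, no filter, the other count column, a replicate block, stricter call rules, an adipocyte marker covariate, the cell samples of 1 LR number alone, each sample left out in turn and, added after the data were seen, a fit without the Ctsd+/+ 1% FCS group. The tests were tested on simulated counts. No 2 samples of a group were alike within counting noise (chi-square per gene of at least 16.5). The 38 genes and all gene lists were chosen with earlier results of these data known. All 38 genes are given; those described sample by sample are the ones with the smallest p in each role and Atf4, Ddit3, Hspa5 and Xbp1, and from each further list at most the 2 with the smallest p in a comparison. Of the marker lists, T cell, B and plasma cell and endothelial markers summed to at most 0.0799, 0.373 and 7.01 CPM in any cell sample; macrophage markers reached 63.7 CPM and adipocyte markers 29.4 CPM there. In control and MMTV-cre;Ctsd-/- tumors respectively, macrophage markers summed to 827 to 2082 and 999 to 1988 CPM, endothelial markers to 45.0 to 94.4 and 60.8 to 234 CPM, B and plasma cell markers to 14.5 to 21.3 and 12.7 to 49.8 CPM, T cell markers to 10.8 to 17.2 and 11.3 to 18.2 CPM and fibroblast markers to 860.1 to 3438 and 1680.2 to 2885 CPM.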

Additional observations from a re-analysis of the deposited data

Results flagged for a closer look

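In 6 of the 38 genes (15.8%) the genotype effect differed between 10 days and 12 weeks by edgeR's test of the difference itself. Over all genes tested this share was larger, at 30.3%. The log2 differences were 1.33 for Vldlr, 1.02 for Eif2ak4, -1.33 for Ddit4, -1.85 for Nupr1, -0.934 for Atf6 and -0.883 for Psat1. In each of them the Ctsd+/+ 1% FCS samples, which stood apart in their fibroblast and epithelial marker levels, enter the difference, and the part of those levels was not tested. For Ddit4 the Ctsd-/- samples were higher at 10 days and lower at 12 weeks, without overlap at either time.

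In 2 of the 76 sets of 4 tumors looked at (38 genes in 2 groups), 1 tumor lay far from the other 3 by Dixon's criterion, which by chance would pick about 1 set in 20. Psat1 was 158 CPM in control replicate 4 and 103 to 105 CPM in the other 3 controls. Trib3 was 35.0 CPM in MMTV-cre;Ctsd-/- replicate 3 and 28.3 to 28.9 CPM in the other 3 tumors of that group.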

How the results depend on the processing

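No called gene of the 38 changed direction under any alternative run, and another size factor or count column left the median log2 FC of all genes within 0.1 of 0. When calls also had to exceed an absolute log2 FC of 1, at an adjusted p below 0.05, the counts of the 38 called higher and lower were 0 and 0 in tumors, 2 and 1 in 1% FCS, 1 and 1 in 1% FCS LT, 0 higher for long culture in Ctsd-/- cells, 3 and 1 for long culture in Ctsd+/+ cells, and 2 and 2 in the corrected comparison. In the same order 0.00537%, 25%, 19.4%, 1.48%, 23.4% and 19.1% of all genes passed this rule. With edgeR's adjusted p below 0.05 alone, 0 were higher and 0 lower in tumors. With the adipocyte covariate 0 were higher and 1, Manf, lower, beside 9.2% of all genes called. The limma-voom fit did not call Manf. Without the filter on low counts Hyou1 and Creld2 were not called in 1% FCS LT. For long culture in Ctsd-/- cells 1 gene was lower by DESeq2 (Edem1) and 1 in the samples of a single LR number (Ddit4). These settings called 7.14% and 4.98% of all genes.

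The replicate numbers were not taken to pair the samples: correlations of same-numbered samples' deviations ran from -0.303 to -0.00754 in tumors, 0.1 to 0.362 in 1% FCS (the lowest just short of the limit of 0.1), 0.00181 to 0.119 in 1% FCS LT, 0.0766 to 0.192 in Ctsd-/- and -0.143 to -0.0326 in Ctsd+/+ cells between culture times. With the replicate block 1 gene was lower in tumors (Herpud1), 8 were higher and 12 lower in 1% FCS, and no call was lost in any cell comparison. Of all genes 9.75% were called in tumors and 49.3% in 1% FCS with that block.

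Over fits that left out 1 sample, the counts higher and lower ran from 2 to 6 and 0 to 4 in tumors, 3 to 9 and 9 to 12 in 1% FCS, 2 to 4 and 6 to 12 in 1% FCS LT, 0 to 1 and 0 to 0 for long culture in Ctsd-/- cells, 4 to 6 and 5 to 9 in Ctsd+/+ cells, and 2 to 6 and 3 to 6 in the corrected comparison. The share of all genes called moved as well, from 9.43% to 23.4% in tumors. It ran from 39.9% to 48.4% in 1% FCS and from 31.1% to 41.4% in 1% FCS LT. For long culture it ran from 0.391% to 3.39% in Ctsd-/- and from 38.6% to 47.1% in Ctsd+/+ cells. In the corrected comparison it ran from 23.4% to 31.1%. In tumors 5 were higher without control replicate 1 and 6 without MMTV-cre;Ctsd-/- replicate 1. All-gene shares called were 20.8% and 23.4% in these 2 fits, against 16.7% with all samples. Without control replicate 2, 3 or 4, 1 was lower (20.4%, 12.3% and 12% of all genes called). Without MMTV-cre;Ctsd-/- replicate 3 or 4, 0 were lower (10.5% and 9.43% of all genes called). In 1% FCS 3 were higher without Ctsd+/+ replicate 1 or Ctsd-/- replicate 2, and in 1% FCS LT 6 were lower without Ctsd+/+ replicate 3 or Ctsd-/- replicate 1 or 2. For long culture in Ctsd-/- cells 0 were higher without 1% FCS replicate 2 or 3 or any 1% FCS LT replicate, and in the corrected comparison 6 were higher without Ctsd+/+ 1% FCS replicate 3. The cause was not tested.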
